A study of Homo sapiens with 11 samples.

Results

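SR proteins, heterogeneous nuclear ribonucleoproteins (hnRNPs) and the kinases that phosphorylate SR proteins were followed in the Jurkat line (clone E6-1), which was derived from a human T cell leukaemia. The cells had been exposed for 30 min to 100 µM dieldrin, an organochlorine insecticide, to 100 µM of the phorbol ester PMA, an activator of protein kinase C, or to the solvent DMSO, in which both compounds were dissolved. The 32 genes were chosen by name, and where a name had several rows the row with the largest mean was taken; all 32 were found among 44416 genes. Poly(A)-enriched RNA was sequenced in 3 libraries each of dieldrin, PMA and DMSO cells, and a further dieldrin and a further DMSO library were depleted of ribosomal RNA. The dose of PMA is that of the labels; PMA is commonly used on cells at far lower doses, so the labelled unit may be an error and the dose behind every PMA value is uncertain. The labels name no separate cultures behind the 3 libraries of each group. The p-values therefore cover only library-to-library spread, possibly technical.

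Before introns can be removed, the splice sites of a pre-mRNA have to be recognised, and SR proteins and hnRNPs set which of them are used. SR proteins bind exonic enhancers through RNA recognition motifs and recruit the spliceosome through a domain rich in arginine and serine. SRPK kinases phosphorylate that domain in the cytoplasm, which allows import into the nucleus, and CLK kinases phosphorylate it further in the nucleus, which releases SR proteins from nuclear speckles. The hnRNPs coat nascent pre-mRNA and often act on splicing in the opposite direction. Many of these genes limit their own level through exons that carry a premature stop codon and send the RNA to nonsense-mediated decay.

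The poly(A) values are those of the authors' 2 comparison sheets, dieldrin against DMSO and PMA against DMSO, which give a mean normalised count, a fold change and its test per gene and no value per library. Folds are the unshrunken ones. The deposited Wald statistic is that of the shrunken change, equal to it over its standard error in all 32 members. The 95% intervals carry this statistic over to the unshrunken change, an assumption, since the sheets hold no error for it; the errors so implied are 1.05 to 1.27 times the deposited ones. A gene was called at an adjusted p under 0.05 in the authors' deposited table. Levels are in CPM, counts per 1e6, the gene's share of all mean normalised counts. The lowest means in the sheets are sums of the values of single reads, and all 171 distinct ones were explained by exactly 18 libraries: 3 that moved the dieldrin change, 3 the PMA change, 3 both changes as DMSO would, and 9 that moved neither and are not analysed here. The means are therefore averages over 18 libraries and not over the 9 of the labels, and no mean per group was derived from them. The spread behind the p-values and intervals may also draw on all 18, and the sheets do not show whether it does. It need not be the spread of the 3 libraries of each group. The single-read values also give the size factors, the relative depths used in normalisation. These were 1.00 to 1.21 for the dieldrin, 0.996 to 1.06 for the PMA and 0.997 to 1.17 for the DMSO libraries. All 10 T cell markers reached 1 CPM, from 43.5 to 834 CPM; among 13 markers of other cell types the B cell gene CD79A (34.6 CPM) and COL1A1 passed 1 CPM. In the authors' deposited table the immediate-early genes EGR1 and JUN stood at 39.3- and 38.8-fold with dieldrin and at 49.1- and 5.81-fold with PMA. The housekeeping genes GAPDH and ACTB were at 0.972- and 1.08-fold with dieldrin and at 0.991- and 1.01-fold with PMA, and were not called.

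Because CLK1 was the gene of this set that moved, the sequences before the starts of the CLK genes are shown for comparison. They are the 250 bases upstream of the outermost RefSeq start of each gene, 5′ to 3′, on GRCh38.p14: chr2:200864659-200864908 (minus strand) for CLK1, chr1:155273505-155273754 (minus strand) for CLK2, chr15:74608122-74608371 (plus strand) for CLK3 and chr5:178627051-178627300 (minus strand) for CLK4. Capitals mark TGACG or its reverse complement CGTCA, the core of the element bound by the cyclic AMP response factor CREB.
CLK1: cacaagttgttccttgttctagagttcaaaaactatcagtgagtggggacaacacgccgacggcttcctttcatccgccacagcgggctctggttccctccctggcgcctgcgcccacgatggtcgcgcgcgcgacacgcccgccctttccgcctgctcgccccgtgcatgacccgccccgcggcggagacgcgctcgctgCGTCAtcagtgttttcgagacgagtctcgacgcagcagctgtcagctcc
CLK2: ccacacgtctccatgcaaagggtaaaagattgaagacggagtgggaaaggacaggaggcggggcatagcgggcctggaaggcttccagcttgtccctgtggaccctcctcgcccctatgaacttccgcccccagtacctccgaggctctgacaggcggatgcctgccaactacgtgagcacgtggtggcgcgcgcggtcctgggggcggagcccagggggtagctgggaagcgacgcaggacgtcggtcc
CLK3: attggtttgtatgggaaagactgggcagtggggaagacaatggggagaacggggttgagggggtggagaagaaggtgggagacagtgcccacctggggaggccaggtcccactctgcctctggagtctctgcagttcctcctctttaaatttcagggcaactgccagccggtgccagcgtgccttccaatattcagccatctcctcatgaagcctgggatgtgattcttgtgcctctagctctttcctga
CLK4: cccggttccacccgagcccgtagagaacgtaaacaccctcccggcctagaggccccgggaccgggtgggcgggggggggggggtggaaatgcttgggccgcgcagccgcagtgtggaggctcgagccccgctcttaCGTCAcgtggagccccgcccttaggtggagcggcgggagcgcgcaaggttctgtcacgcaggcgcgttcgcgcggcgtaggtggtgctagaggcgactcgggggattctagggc

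CLK1 and CLK4 each held the core once upstream of these starts, CLK1 beginning at position -49 and CLK4 at -114 counted from the start, while CLK2 and the outermost CLK3 start held none. The core was also present upstream of a second CLK3 start. Of 28 members with a promoter in the RefSeq table, 19 (67.9%) had the core on either strand in at least 1 of their upstream windows, against 38.4% of 6864 genes of 10 CPM or more and 24.9% of all 27305 genes in the table. The median number of CG dinucleotides in these windows was 26.5 in the members and 24.0 in the genes of 10 CPM or more. The full element TGACGTCA and the AP-1 site TGANTCA were found in 0 of the 28 members, against 3.82% and 5.19% of the genes of 10 CPM or more. A heat shock element core, GAANNTTC, was present in HNRNPA2B1 and HNRNPC, and 5.65% of the genes of 10 CPM or more had it. The TATA box TATAAA was present in 5 of 28 (17.9%, against 6.73%), namely SRSF3, SRSF7, SRSF11, HNRNPC and HNRNPD. The CCAAT box was present in 11 (39.3%, against 42.3%), the GC box GGGCGG in 19 (67.9%, against 76.5%) and the EGR site GCGTGGGCG in 1, HNRNPDL (3.57%, against 1.69%). These 8 motifs are all that were searched. The shares were not adjusted for the number of windows per gene, which differed between genes. These matches describe letters in a window and are not binding sites.

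The 32 RNAs were abundant and differed widely from one another. Together they made up 1.84% of all normalised counts, and each passed the authors' filter on low means in both sheets, with mean counts from 1119 to 215684. Per kb of annotated exon, HNRNPA1, a shuttling protein that represses exons, had the highest level at 506 CPM per kb, followed by HNRNPA2B1, its close relative, at 254 CPM per kb. SRSF2, an SR protein concentrated in nuclear speckles, came next with 209 CPM per kb and HNRNPK, which binds C-rich RNA, with 206 CPM per kb. HNRNPA3, a relative of HNRNPA1, had 196 CPM per kb. The kinase RNAs were among the lower ones: SRPK1 had 29.5 CPM per kb, CLK1 10.1, SRPK2 9.94, CLK2 9.73, CLK3 2.80 and CLK4 1.69 CPM per kb. SRSF10, an SR-like protein that represses splicing after heat shock, was the sole non-kinase member under 10 CPM per kb, with 2.28 CPM per kb. The median over the 32 was 68.8 CPM per kb, against 8.77 CPM per kb for 8609 protein-coding genes of 10 CPM or more. Exon lengths are those of GENCODE release 29, while the genes of the sheets are on hg19. For HNRNPA0 the exon length was 8.73 kb and the gene in the sheets 2.965 kb, and for HNRNPU 22.5 and 13.4 kb. Their levels per kb may therefore be understated. No spread between libraries is available for these levels, so neighbours in this order cannot be told apart by a test.

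**Figure D1:**
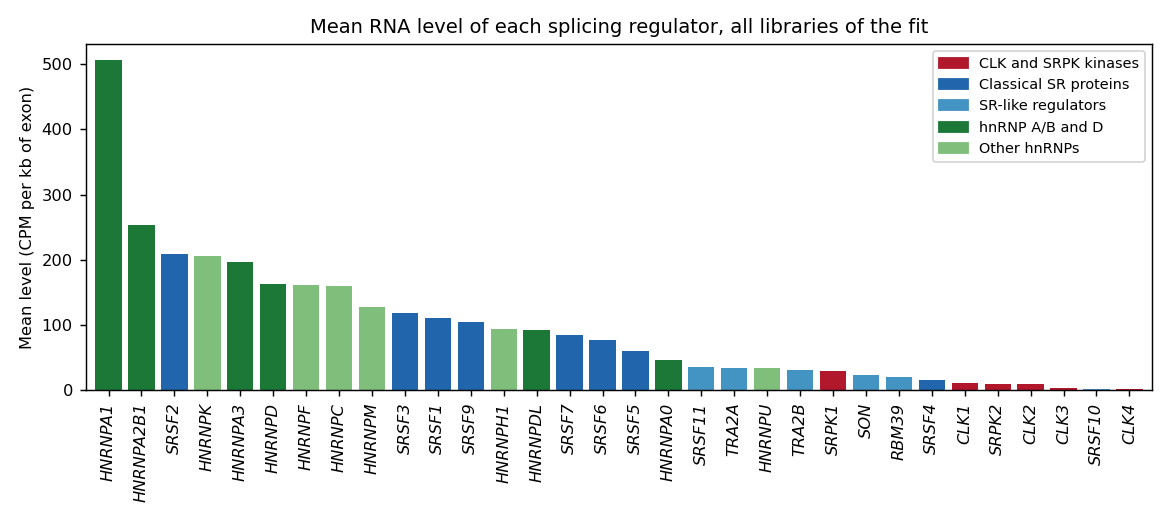
Mean level of each of the 32 genes in CPM per kb of exon (vertical axis), ordered from high to low and coloured by role; bars start at 0 and carry no error because the sheets hold no value per library. HNRNPA1 stands at 506 and CLK4 at 1.69 CPM per kb, and the 6 lowest bars are those of 5 kinases and SRSF10. The bars of HNRNPA0 and HNRNPU may be too low, since their exon length exceeds the gene in the sheets.

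SRSF10 was the only member with several rows. Its chromosome 1 row has 23.4 CPM and a second row, on the scaffold GL000191.1, has 14.4 CPM, so the reads of this gene may have been divided between near-identical copies. Rows named as pseudogenes of members held few reads: 72 such rows of HNRNPA1 summed to 41.0 CPM, which is 1.59% of HNRNPA1 itself, and 16 of HNRNPA3 to 1.10% of HNRNPA3. Of the 32, 7 are overlapped by another gene with at least 1% of their own level, 6 of them by a gene on the opposite strand. These 6 are CLK2 with HCN3, CLK3 with EDC3, SRPK2 with KMT2E, SON with GART and DONSON, SRSF2 with MFSD11 and HNRNPA2B1 with CBX3, and without the counting settings the division of reads between the partners is uncertain. CLK1 is overlapped by a Y RNA row alone, which has 0.0746% of its level.

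The question of the dieldrin comparison is which of these RNAs changed within 30 min of the insecticide. CLK1 rose, and it was the only one of the 32 that passed the test. The SR protein SRSF2 had the next smallest p at 1.12-fold and was not called. The other 30 members lay between 0.947- and 1.15-fold, with SRSF1, HNRNPA0, SON and TRA2A at the low end. Thus 1 of 32 members (3.13%) was called in the authors' deposited table, against 2.3% of the 19280 genes tested, a share near the background. In the higher direction it was 1 of 32 against 1.28%, and in the lower direction 0 against 1.02%.

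CLK1 (ENSG00000013441, hg19 chromosome 2, 201717732 to 201729422, minus strand) encodes a dual-specificity kinase that phosphorylates SR proteins and controls the splicing of its own RNA. With dieldrin it stood at 1.64-fold (95% interval 1.41 to 1.92) over DMSO in the authors' deposited table. The shrunken log2 change was 0.58 ± 0.0923 (standard error), and the authors' adjusted p was 8.56e-08. By p it ranked 91 among the genes tested, and by fold 128 among the 246 genes called higher, whose median was 1.72-fold. The rise was thus of middle size among the genes that dieldrin raised. In RNA from bulk cells, a change in the share of cells with the RNA and a change in RNA per cell cannot be told apart.

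The other kinases did not pass. CLK4, the closest relative of CLK1, was at 1.15-fold (0.988 to 1.33) with dieldrin, CLK3 at 1.11-fold (0.995 to 1.23) and CLK2 at 1.06-fold (0.916 to 1.23) in the authors' deposited table. The interval of CLK1 lies above those of the 3 other CLK genes without overlap. SRPK1 was at 0.996-fold (0.897 to 1.10) and SRPK2 at 1.01-fold (0.873 to 1.18), so both intervals included no change.

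Among the 8 classical SR proteins, 0 were called with dieldrin and 1 had an unadjusted p under 0.05. This was SRSF2 (ENSG00000161547, hg19 chromosome 17, 74730197 to 74733456), which the authors' deposited table gives at 1.12-fold (1.04 to 1.21), p 0.00343, adjusted p 0.115. SRSF3 and SRSF7, which also carry mRNA out of the nucleus, were at 1.08-fold each, with intervals of 0.956 to 1.22 and 0.949 to 1.23. SRSF1, the founding SR protein, was at 0.947-fold (0.876 to 1.02), the lowest of the group. SRSF4, SRSF5, SRSF6 and SRSF9 lay between 0.995- and 1.04-fold in the authors' deposited table. Over the 8, interval bounds ran from 0.876 to 1.23.

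Of the 6 SR-like regulators, 0 were called by the authors' Wald test, with 0 at an unadjusted p under 0.05. RBM39, a splicing factor that works with U2AF, had the highest value of the 6, 1.04-fold (0.921 to 1.18), and SON, which holds nuclear speckles together, and TRA2A, a homologue of fly transformer-2, the lowest, 0.967-fold each (0.863 to 1.08 and 0.847 to 1.11). SRSF10 was at 1.02-fold, SRSF11 at 0.990-fold and TRA2B at 1.03-fold in the authors' deposited table. The second SRSF10 row, on the scaffold GL000191.1, has the lower mean and was left out of these counts. It was at 1.13-fold with dieldrin in the authors' Wald test (unadjusted p 0.0403, adjusted p 0.537) and was not called.

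Among the 12 hnRNP genes, 0 were called with dieldrin, and 0 had an unadjusted p under 0.05 in the authors' Wald test. HNRNPH1, which binds G-rich runs, had the highest value at 1.07-fold (0.981 to 1.16) and HNRNPA0 the lowest at 0.947-fold (0.864 to 1.04). HNRNPA1 was at 1.03-fold (0.927 to 1.15), HNRNPA2B1 at 0.999-fold (0.887 to 1.13) and HNRNPC, which packages pre-mRNA and binds runs of U, at 1.03-fold (0.936 to 1.13) in the authors' deposited table. HNRNPA3, HNRNPD (also called AUF1, a binder of AU-rich RNA), HNRNPDL, HNRNPF, HNRNPK, HNRNPM and HNRNPU lay between 0.979- and 1.03-fold, with HNRNPA3 at 0.979-fold (0.842 to 1.14) and HNRNPM at 0.991-fold (0.888 to 1.11).

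**Figure D2:**
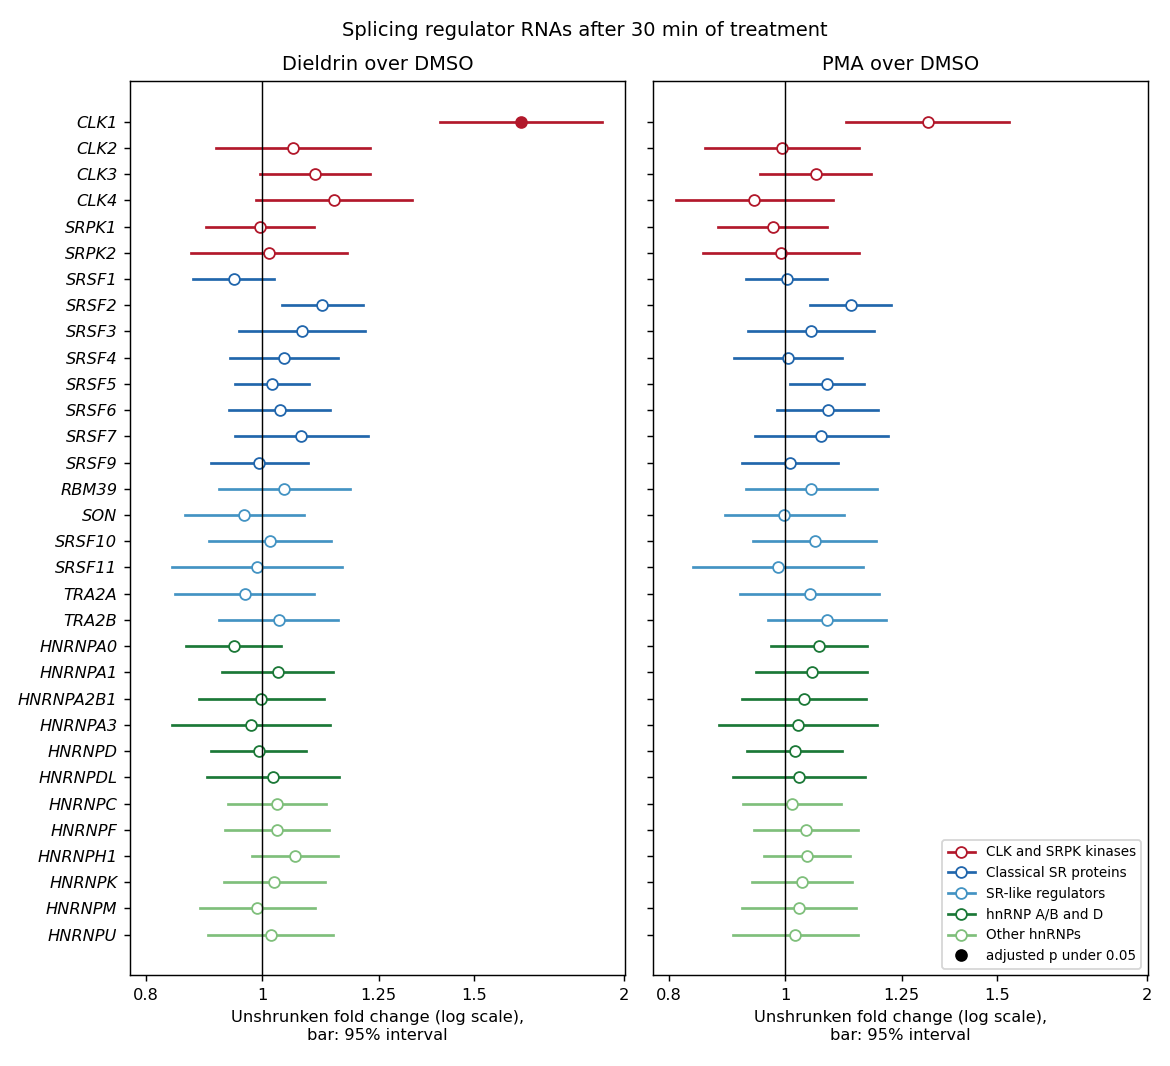
Unshrunken fold change of each of the 32 genes (points, log axis) with its 95% interval (bars), dieldrin over DMSO at left and PMA over DMSO at right, coloured by role; filled points have an adjusted p under 0.05. CLK1 with dieldrin, at 1.64-fold, is the single filled point, and both CLK1 and SRSF2 have intervals above 1 in both panels.

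The implied standard errors of the unshrunken log2 change ran from 0.052 to 0.12, with a median of 0.082 with dieldrin, while the median over all genes tested was 0.15. In 31 of 32 members the interval with dieldrin lay within 1.5-fold of DMSO in both directions, CLK1 being the exception, and with PMA the count and the exception were the same. The median change of the 32 was 1.02-fold, or 0.03 in log2, and that of all genes tested 1.00-fold. With dieldrin 21 of 32 members (65.6%) were above 0, against 46.8% of the tested genes of 10 CPM or more, which were not matched to the members in level. At an unadjusted p under 0.05 the count was 2 of 32 (6.25%), CLK1 and SRSF2, against 8.36% of all genes tested. Both were higher, against 4.54% of genes higher and 3.82% lower at that limit.

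The PMA comparison asks the same after direct activation of protein kinase C. By the authors' adjusted p, 0 of 32 members were called, against 0.619% of the 17612 genes tested (0.528% higher and 0.0908% lower). There were 3 with an unadjusted p under 0.05, CLK1, SRSF2 and SRSF5, all higher (9.38%, against 3.73% of the genes tested, with 2.25% higher). CLK1 was at 1.31-fold (1.12 to 1.54) with PMA in the authors' deposited table, p 0.000617, adjusted p 0.0891. SRSF2 was at 1.13-fold (1.05 to 1.23), p 0.00149, adjusted p 0.167, and SRSF5 at 1.08-fold (1.01 to 1.16), adjusted p 0.989. The Wald statistic of PMA had a robust spread of 0.689 over the genes tested, where a spread of 1 would be that of unchanged genes, and 0.922 with dieldrin. Divided by that spread, the PMA statistic called CLK1 (adjusted p 9.51e-05) and SRSF2 (adjusted p 0.000441), that is 2 of 32 members, against 2.84% of the genes tested. SRSF5 then had an adjusted p of 0.0510, and with dieldrin SRSF2 had 0.0504; the rescaled dieldrin statistic called 2.96% of the genes tested and CLK1 alone of the members.

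The remaining members were close to DMSO after PMA. CLK4 was at 0.943-fold (0.811 to 1.10), the lowest of the 32 in the authors' deposited table, and CLK2 and CLK3 at 0.994- and 1.06-fold. SRPK1 was at 0.976-fold (0.880 to 1.08) and SRPK2 at 0.992-fold (0.854 to 1.15). All 8 classical SR proteins were above 1, from 1.00-fold for SRSF1 to 1.13-fold for SRSF2, and SRSF6 was at 1.09-fold (0.985 to 1.20). Among SR-like regulators the values ran from 0.986-fold for SRSF11 to 1.08-fold for TRA2B (0.967 to 1.21). The second SRSF10 row, left out of these values, was at 1.13-fold with PMA. Its unadjusted p was 0.0313 in the authors' Wald test, and it was not called. All 12 hnRNP genes were above 1 as well, and each of their intervals included 1. HNRNPA0 was at 1.07-fold (0.973 to 1.17) and HNRNPD at 1.02-fold, the ends of the A/B and D group, and HNRNPH1 at 1.04-fold and HNRNPC at 1.01-fold, the ends of the others. HNRNPA1, HNRNPA2B1 and HNRNPA3 were at 1.05-, 1.04- and 1.02-fold in the authors' deposited table. In all, 26 of 32 (81.2%) were above 0 with PMA, against 52.2% of the tested genes of 10 CPM or more, with a median of 1.03-fold. Those genes were not matched to the members in level, and the share above 0 was 48.1% over all genes tested. In the lists of other splicing genes described below, it ran from 25.0% (other kinases, phosphatases and importers) to 76.9% (other hnRNPs). Core spliceosome genes had 64.7%, and all 119 tested genes of those lists 52.1%. Both comparisons use the same DMSO libraries, so a low or high DMSO value moves both in the same direction.

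**Figure D3:**
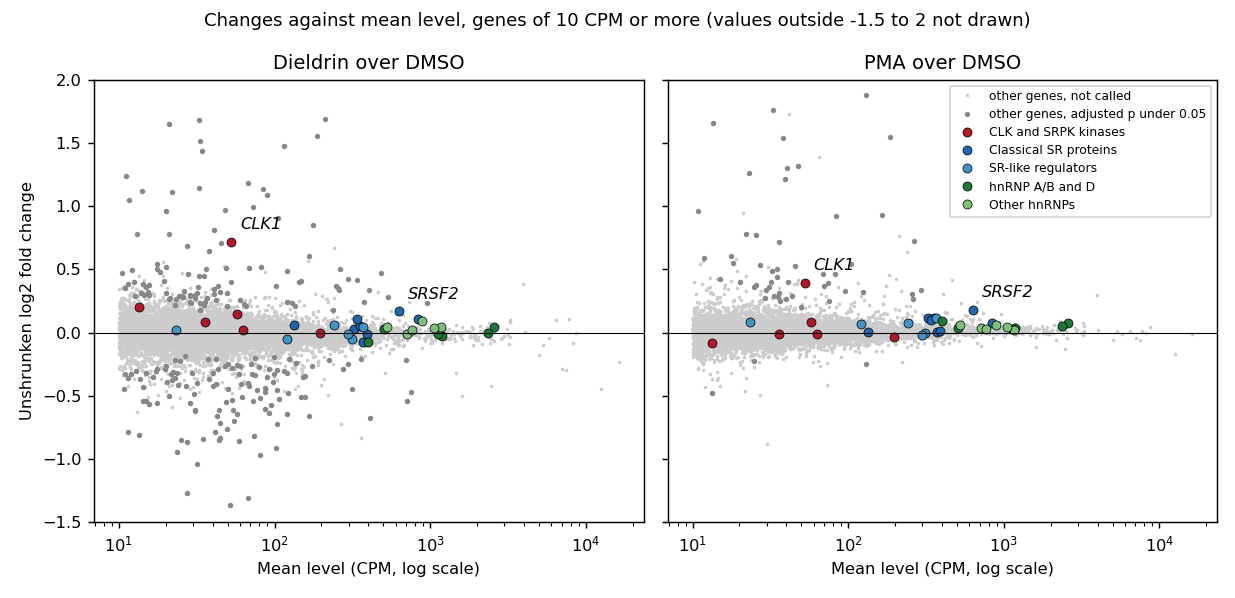
Unshrunken log2 fold change (vertical axis) against mean level in CPM (log axis) for genes of 10 CPM or more, dieldrin over DMSO at left and PMA over DMSO at right; the 32 genes are coloured by role and other called genes are dark grey. CLK1 lies apart from the cloud at 0.72 with dieldrin and at 0.39 with PMA, and the abundant hnRNP genes lie along 0.

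Dieldrin and PMA were then set against each other by the difference of the shrunken changes. By this test 0 of 32 members differed at an adjusted p under 0.05, where 0.494% of 17612 genes did. CLK1 had the largest difference, 0.26 higher with dieldrin than with PMA in shrunken log2 (95% interval 0.0049 to 0.52), with an unadjusted p of 0.0458 and an adjusted p of 1.00. It was also the only member with an unadjusted p under 0.05, a rule that 2.71% of the genes met. With the difference statistic divided by its own robust spread, which was 0.616, CLK1 was called at an adjusted p of 0.0467, as were 2.62% of the genes. CLK4 followed with 0.23, and HNRNPA0 was at the other end, 0.16 lower with dieldrin than with PMA. The shared DMSO libraries cancel in this difference and their covariance was left out, which by itself enlarges the error.

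Other genes of the splicing pathway were read from 6 lists of 122 symbols, 121 of them in the sheets and 119 tested. RSRC2, which encodes a protein rich in arginine and serine, was the only one called with dieldrin. The authors' deposited table has it at 1.29-fold (1.17 to 1.43), adjusted p 0.000111. Over all genes tested with dieldrin, 2.3% were called and 1.28% were called higher. RSRC2 belongs to the list of other SR and SR-related proteins, where 1 of 23 genes tested rose and 0 fell; 3 of the 23, RSRC2 among them, were higher at an unadjusted p under 0.05 and 1 was lower. The other 2 higher ones were LUC7L, which acts with the U1 particle, at 1.15-fold (1.03 to 1.29, adjusted p 0.283), and SCAF4, which binds the tail of RNA polymerase II, at 1.09-fold (1.02 to 1.17, adjusted p 0.258) in the authors' deposited table. The lower one was SRSF8, a close copy of SRSF2, at 0.836-fold (0.731 to 0.955, adjusted p 0.210). In the other 5 lists 0 genes were called with dieldrin in the authors' Wald test: 34 core spliceosome genes, 13 other hnRNPs, 22 other splicing regulators, 12 other kinases, phosphatases and importers of SR proteins, and 15 genes of nonsense-mediated decay. At an unadjusted p under 0.05 these 5 lists held 2 genes, both lower: the cold-inducible CIRBP at 0.881-fold (0.797 to 0.974) and TARDBP, the gene of TDP-43, at 0.916-fold (0.843 to 0.995). Over all 119 genes the count was thus 3 higher and 3 lower, against 4.54% and 3.82% of all genes tested. Core spliceosome genes had the narrowest range, from 0.932- to 1.07-fold, with DDX23 at 0.935-fold and PRPF8 at 0.944-fold as the 2 of smallest p. HNRNPH3 was at 0.911-fold and HNRNPL at 1.07-fold, PRPF4B at 0.939-fold and DYRK1A at 1.07-fold, and SMG5 at 0.905-fold and EIF4A3 at 1.06-fold in the authors' deposited table.

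With PMA 0 of the 119 genes were called, against 0.619% of all genes tested. RSRC2 (1.15-fold, 1.03 to 1.27) and SCAF4, close to its dieldrin value at 1.10-fold (1.02 to 1.18) were the 2 with an unadjusted p under 0.05, and the authors' deposited table adjusts these to 0.563 and 0.557. After division by the spread of the statistic both were called, at adjusted p-values of 0.00988 and 0.00963, as were 2.84% of all genes tested. In the other lists the 2 of smallest p were PRPF4 and DHX15 (1.03- and 1.04-fold), HNRNPH2 and PCBP1 (1.06- and 1.04-fold), SFPQ and RBMX (1.06- and 1.04-fold), CDK11A and CDK12 (0.920- and 0.970-fold) and SMG6 and EIF4A3 (0.919- and 1.06-fold). The median over the 119 was 0.998-fold with dieldrin and 1.00-fold with PMA.

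Sites of divergent transcription, stretches from which RNA is made in both directions, give a second readout. The rule that chose the genes by name did not use these sites, but the choice was made with earlier results of these data known. The authors deposited 1 list of 118474 sites from the ribosomal RNA-depleted dieldrin library and 1 of 113689 sites from the DMSO library, on hg19. There is 1 library a condition, so these counts have no replicate check and no test. In the dieldrin list 28 of 32 members (87.5%, exact 95% binomial interval 71.0 to 96.5, counting error only) had a site within 1 kb of the annotated gene start, against 84% of 8975 genes of 10 CPM or more. The DMSO list gave 28 of 32 as well, against 84.1%, so both shares are near the background. The annotated start is the outer end of the gene in the sheets and need not be the RefSeq start of the windows above. By it the lists agreed on 27 members with a site and 3 without, CLK4, SRPK2 and SRSF5. CLK2 had one in the dieldrin list alone and CLK3 in the DMSO list alone. Nearest centres lay 3199.5 (dieldrin) and 3288 bases (DMSO) into CLK4. They lay 5129 bases into CLK2 and 39935 into SRSF5 in the DMSO list, and 1685.5 into CLK3 in the dieldrin list. Whether these sites lie at another start was not tested. By these outer starts the kinases were the role with the fewest, 3 of 6 in each list. All 18 SR-like regulators and hnRNP genes had one in both. The counts were not repeated with RefSeq starts, so they do not show that kinase promoters lack such sites.

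**Figure D4:**
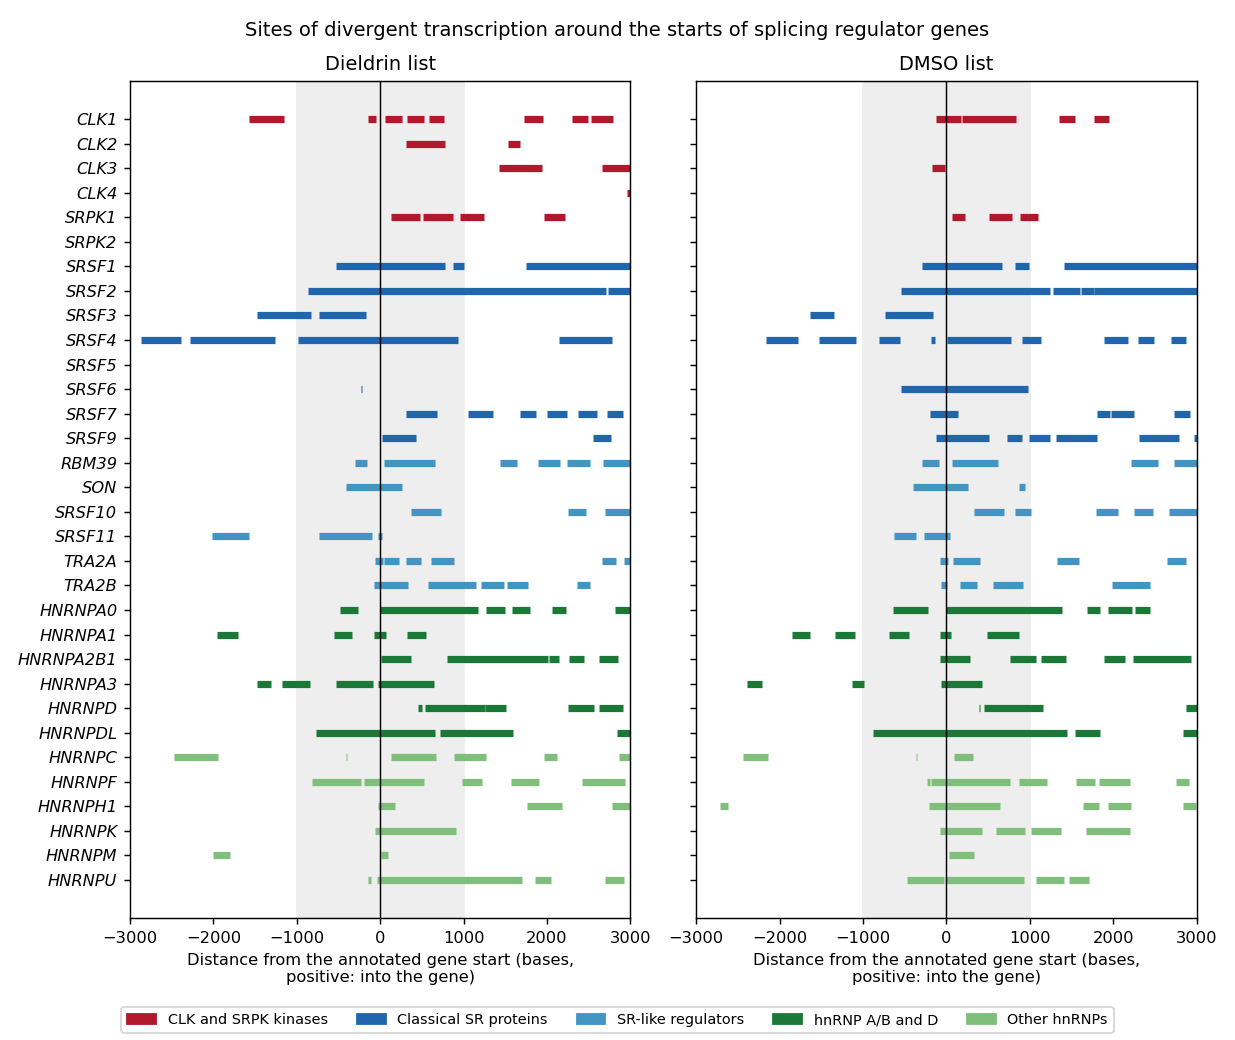
Sites of divergent transcription (bars, drawn to length) by distance in bases from the annotated start of each of the 32 genes, dieldrin list at left and DMSO list at right, with positive distances inside the gene and 1 kb either side shaded. The start is the outer end of the gene in the sheets and need not be its RefSeq start. Most rows have a bar in the shaded band in both panels, and the CLK4, SRPK2 and SRSF5 rows have none there.

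At the start of CLK1 the dieldrin list held 4 sites within 1 kb, and the DMSO list 2 longer ones. Those of the dieldrin list nearest to the start ran from 201729476 to 201729564 and from 201729161 to 201729368 on hg19 chromosome 2, with centres 98 bases before and 158 bases after it. In the DMSO list the nearest ran from 201729249 to 201729552, centred 22 bases after the start. In the gene or within 10 kb of its start, CLK1 had 14 sites in the dieldrin list and 8 in the DMSO list, CLK3 33 and 22, CLK4 7 and 9, and CLK2 6 in each. Site counts per window thus differed in both directions between relatives of CLK1. The start of SRSF2 lay in a site of 3579 bases in the dieldrin list (hg19 chromosome 17, 74730744 to 74734322), and in one of 1789 bases in the DMSO list (74732216 to 74734004). MFSD11, on the opposite strand, overlaps SRSF2 there.

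All 32 members had a site in the gene or within 10 kb of its start in both lists, against 98.4% of the genes of 10 CPM or more in the dieldrin list and 98.5% in the DMSO list. The windows held 515 sites in the dieldrin list and 517 in the DMSO list, from lists that differ in total. Inside the gene bodies both lists had 457 sites, or 4.49 per 10 kb, while the genes of 10 CPM or more had 1.505 per 10 kb in the dieldrin list and 1.469 per 10 kb in the DMSO list. HNRNPC held the most of any member, 55 in the dieldrin and 61 in the DMSO window, and SRPK2, a far longer gene, 51 and 50. The members had a median gene length of 18.4 kb and a median level of 369 CPM, against 32.5 kb and 45.5 CPM in protein-coding genes of 10 CPM or more. The part of level and length in the site density was not tested.

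The set also shared a feature of its annotation. In GENCODE release 29, matched by gene ID, 28 of 32 members (87.5%) had at least 1 transcript annotated for nonsense-mediated decay, against 47.1% of 8609 protein-coding genes of 10 CPM or more, and 26 of 32 (81.2%) had at least 1 with a retained intron, against 62.2%. The members had a median of 12.5 annotated transcripts and the other genes 8. All 10 SRSF genes had a transcript annotated for decay. CLK1 had 8 transcripts with a retained intron and 2 for decay, CLK3 8 and 3, CLK4 7 and 3, and CLK2 had 0 of either kind. RBM39 and HNRNPH1 had the most with a retained intron, 16 each, and neither was called with dieldrin or PMA. In mouse and human cells, CLK1 RNA with retained introns is known to be kept in the nucleus and spliced under stress. The sheets count reads per gene, so productive, retained-intron and decay forms could not be told apart here, and a change in splicing that leaves a gene's total unchanged would not appear in these values.

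**Figure D5:**
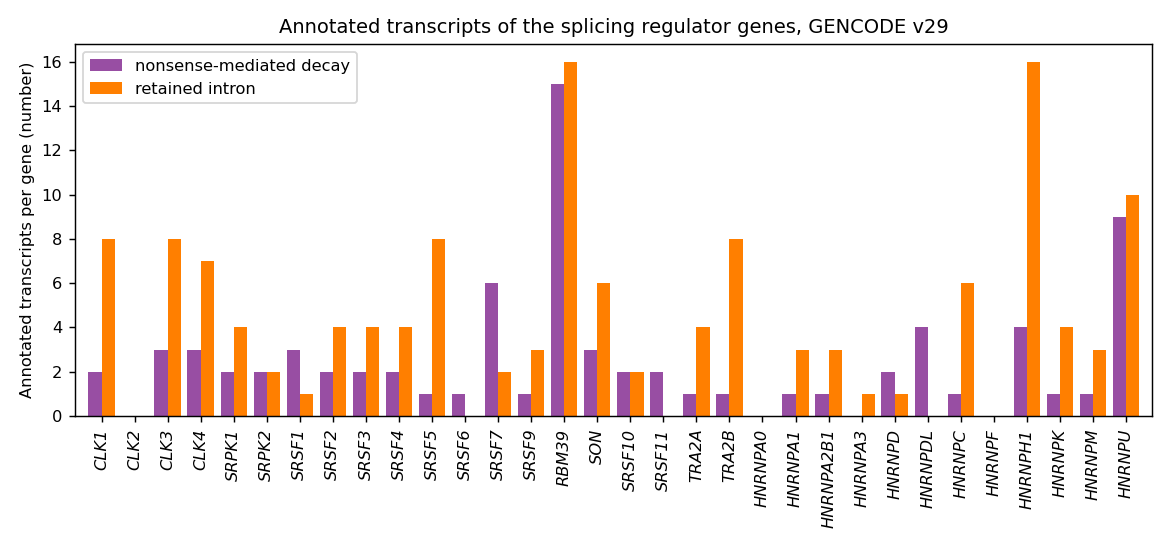
Number of annotated transcripts per gene (vertical axis, from 0) in the nonsense-mediated decay and retained intron classes of GENCODE release 29 for the 32 genes, ordered by role. CLK1 and CLK3 have 8 retained-intron transcripts each, CLK4 has 7, CLK2 has none, and RBM39 and HNRNPH1 reach 16.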

How the data were processed

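The members and lists were chosen with earlier results of these data known. STAR, edgeR and hg19 are named by the submitters' processing notes, but a Wald statistic and a shrunken change, as the sheets hold, are not edgeR output, so the tool behind the sheets is uncertain. Not given in the sources used here are versions, settings, the counting tool, its use of strand and the site caller. Per the file headers, the authors' sheets give each gene a mean over libraries (signal, in normalised counts). Per the same headers, the authors also deposited log2 fold changes with and without shrinkage, the standard error, a Wald score, and the p-value before and after adjustment. The site lists, deposited by the authors, hold positions alone, printed here counted from 1. No value per library was used, so no count model was fitted and the absolute depth is unknown; 1 CPM is a mean of 83.7 normalised counts.

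Computed here were the 18-library decomposition (tolerance 3e-09), the intervals, the normal two-sided test of dieldrin against PMA adjusted by Benjamini-Hochberg over the genes that both sheets adjust, site overlaps (at least 1 base), transcript classes and exon lengths from GENCODE release 29 (41842 of 44416 IDs matched) and motif matches on both strands. Named genes are the called members, the extremes of each role, all kinases, the 3 members of highest mean and, per pathway list, called genes and the 2 of smallest p; further members, among them the neighbours in the order of levels, and LUC7L were named after their values were seen. Scripts ran in Python 3.11.15 with scipy 1.17.1, pandas 2.3.3, numpy 2.4.6 and, for figures, matplotlib 3.10.9.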

Additional observations from a re-analysis of the deposited data

How the results depend on the processing

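With dieldrin, CLK1 alone of the 32 genes was called under each of 9 other settings: thresholds of 0.01 and 0.1, no filter on low means, adjustment over genes of 1 CPM or more, adjustment over genes of 10 CPM or more (chosen after seeing the data), the statistic divided by its robust spread or centred on its median, every row of a symbol, and the shrunken change; its adjusted p ran from 2.53e-09 to 1.92e-07 over the 5 that refit it. With PMA the count of 0 became 1 (CLK1) at a threshold of 0.1 and 2 (CLK1 and SRSF2) with the statistic divided by its spread, and it stayed 0 under the other 7; the cause was not tested. The difference between dieldrin and PMA, 0 members, became 1 (CLK1) with its statistic divided by its spread and stayed 0 with unshrunken changes and over genes of 1 CPM or more. Counts of members with a site at the start were 28 within 500 bases in both lists, and 29 with dieldrin and 28 with DMSO within 2 kb; all 32 kept a site in the wider window when its centre had to lie inside. Leaving out libraries was not run, since the sheets hold no value per library. No paired analysis was possible because the sheets give comparisons and no column per replicate. The lowest member mean was 1119 normalised counts, an average over all 18 libraries of the fit. It does not show the depth of the 9 labelled poly(A) libraries.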
